A study of Mus musculus with 8 samples.

Results

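A set of 10 genes known from thalamic neurons was followed through a TRAP-Seq experiment on the paraventricular nucleus of the thalamus (PVT). They are the transcription factor genes Tcf7l2, Lef1, Gbx2, Lhx2, Lhx9, Rora, Rorb, Foxp2 and Zic1, and Calb2, which encodes the calcium-binding protein calretinin. Some are also made outside the thalamus, such as Foxp2 in striatal neurons, so their levels need not come from thalamic neurons alone. The genes were taken by name from the table of read counts, with 1 transcript per gene, the one with the highest total over the libraries. All 10 were found among 18939 genes. In translating ribosome affinity purification (TRAP), a ribosomal protein fused to a fluorescent tag is made in chosen cells only, and RNA on the tagged ribosomes is pulled down and sequenced. Here the tag was EGFP-L10a, switched on by Cre recombinase inserted at the end of the mu opioid receptor (MOR) gene, Oprm1.

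There were 8 libraries, 4 from mice that drank morphine and 4 from controls. Mice of both groups carried OPRM1cre and EGFP-L10a on a C57Bl/6J background, were 8 to 12 weeks old at the start and drank 0.2% saccharin. In the morphine group the saccharin solution also held morphine, raised in steps to 0.5 mg/ml over 11 days. Each library pooled PVT dissections of 2 mice of the same sex, and each group had 2 male libraries (control 1 and 2, morphine 3 and 4) and 2 female libraries (control 5 and 6, morphine 7 and 8). The dissection was gross and Cre marks any cell in it that has used Oprm1, so tagged cells of neighbouring regions can be in a library, and no unpurified input was analysed here. Since each library is a bulk sample of pooled mice, fewer cells of a type and less RNA per cell cannot be told apart, and P values measure the spread between these pools.

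Total counts lay between 31151106 and 47582947 per library, of which the 10 genes took 0.185% to 0.332%. In control 5, labelled female, 4 Y-linked genes stood at 28.7% to 35.8% of their mean in the male libraries, while the other female libraries held at most 2 counts of any of them. Control 6 and morphine 7 lay apart from the other 6 libraries on the second principal component. Morphine and control values of the 10 genes were recomputed without each of these libraries, and the sex comparisons without control 5.

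The thalamus forms from the alar part of the diencephalon, and its excitatory neurons keep a set of transcription factors into adult life. Tcf7l2, a nuclear partner of beta-catenin in Wnt signalling, is made throughout the thalamus and in the habenula and is needed for its neurons to take on and keep their type. Gbx2 and the LIM homeodomain factors Lhx2 and Lhx9 act in the differentiation of thalamic neurons and the growth of their axons, and in the adult Gbx2 and calretinin are known from the midline nuclei, to which the PVT belongs. The nuclear receptors Rora and Rorb are more typical of sensory relay nuclei, and Zic1 of medial thalamus and habenula.

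All 10 genes were well measured in every library, with between 892 counts (the lowest value of Gbx2) and 54163 counts (the highest value of Tcf7l2). To compare genes, levels were divided by transcript length and are given per kilobase, from CPM, the counts scaled to the size of each library. Calb2 was at 362 ± 85.8 CPM per kilobase in the control group (SD, n = 4) and Tcf7l2 at 303 ± 55.7. By their means over all 8 libraries they were at percentiles 99.5 and 99.3 of 18500 genes with a known length. Zic1 followed at 155 ± 44.6 CPM per kilobase. These 3 genes stood above the rest of the set, with Zic1 at 4.46 times the level of the next gene, Rorb, over all libraries.

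The other 7 genes lay close together. Rorb was at 33.3 ± 6.36 CPM per kilobase in the control group, Gbx2 at 32.3 ± 4.45, Lef1 at 25.6 ± 5.99 and Rora at 21.4 ± 4.15. Foxp2 was at 20.5 ± 3.47, Lhx9 at 19.7 ± 4.12 and Lhx2, the lowest, at 15.3 ± 2.44 CPM per kilobase, at percentile 74.2 by its mean over all libraries. Of the 9 neighbouring pairs in this order, control ranges overlapped in all but 2, Tcf7l2 over Zic1 and Zic1 over Rorb, and in these 2 pairs, as in Lef1 over Rora, the first gene was the higher one in 8 of 8 libraries. Within families, the mean level per kilobase over all libraries was 12.1 times as high for Tcf7l2 as for Lef1, 1.46 times as high for Rorb as for Rora and 1.16 times as high for Lhx9 as for Lhx2.

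**Figure D1:**
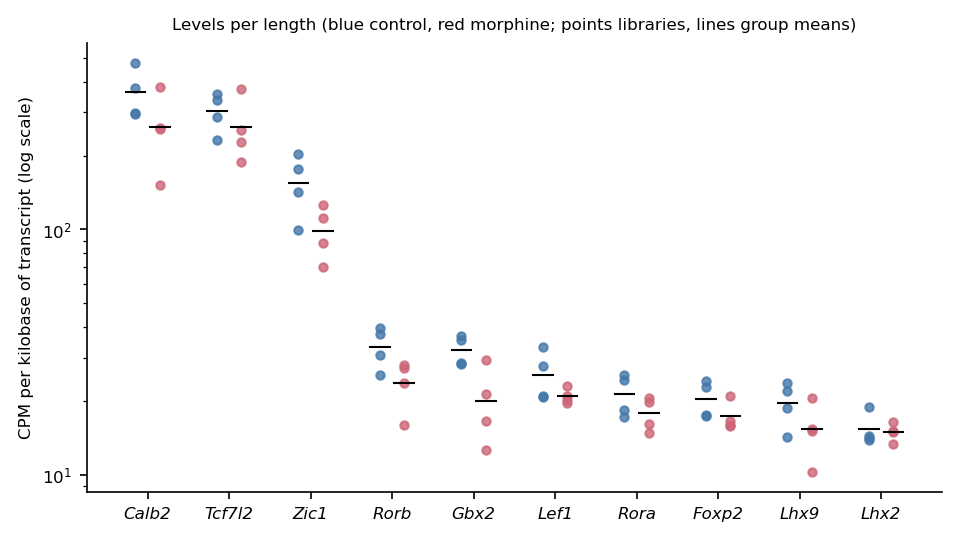
Level of each of the 10 genes per transcript length, in CPM per kilobase on a log axis, with 1 point per library (blue control, red morphine) and a line at each group mean. Calb2, Tcf7l2 and Zic1 stand above the other 7 genes, whose control means lie between 15.3 and 33.3 CPM per kilobase.

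The label of the samples, MOR-expressing PVT neurons, was checked against marker genes. Oprm1 itself was at 25.3 ± 6.92 CPM in control (16.8 to 32.3) and 16.5 ± 1.95 CPM in morphine libraries (14.0 to 18.4), with a log2 fold change of -0.62 (adjusted P = 0.207, edgeR). Slc17a6, the vesicular glutamate transporter of thalamic excitatory neurons, was at 283 ± 29.7 CPM in the control and 279 ± 73.1 CPM in the morphine group (SD, n = 4). Of 8 further genes of the midline thalamus, 2 had a mean under 1 CPM over all libraries (Drd3 and Npffr1), and the summed level of the 8 was 46.2 to 60.9 CPM in control and 35.0 to 91.4 CPM in morphine libraries. Markers of other cells were present too. A list of 13 genes of telencephalic pyramidal neurons summed to 1583 to 2345 CPM in control and 2093 to 4262 CPM in morphine libraries, and 12 genes of GABAergic neurons to 1267 to 1668 and 969 to 1541 CPM. Drd2, a dopamine receptor gene, held 24.0 ± 11.4 CPM of a mean midline sum of 51.2 CPM in control and 43.8 ± 27.2 CPM of 58.9 CPM in morphine libraries (log2 fold change 0.87, or 0.45 without morphine 4, adjusted P = 0.481), while 6 of the 8 genes had a lower mean in the morphine group. In the midline list edgeR called 0 genes and DESeq2 called Gal and Esr1, both lower in the morphine group, and in the GABAergic list neither tool called a gene. Before adjustment, 2 genes of each of these lists had P values under 0.05, all lower, as compared to 5.31% of all genes. Genes with 0 counts in every library were dropped before the lists were read, so the lists cannot show genes that were absent throughout.

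The main comparison asked whether levels of the 10 genes differed after chronic morphine as compared to saccharin alone. The mean of each of the 10 was lower in the morphine group, and none of the differences passed edgeR's quasi-likelihood test after Benjamini-Hochberg adjustment over all genes (adjusted P value under 0.05), a test that called 37 of 18939 genes, 0.195%. DESeq2 called 502 genes (2.65%), and none of the 10 either. The median log2 fold change was -0.33 for the 10 genes and 0.0088 for all genes, and that of the 10 lay between -0.49 (without morphine 3) and -0.25 (without morphine 4) with single libraries left out. Among all genes, 48.6% had a log2 fold change below 0, and 53.9% of the 7502 genes with a mean of at least 20 CPM. Before adjustment, Gbx2, Zic1 and Rorb had P values under 0.05, a rule that 2292 genes (12.1%) met in either direction and 1006 (5.31%) in the lower one. In 0 of the 10 genes did the morphine libraries all lie below the control libraries, as compared to 607 genes (3.21%) in the table.

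**Figure D2:**
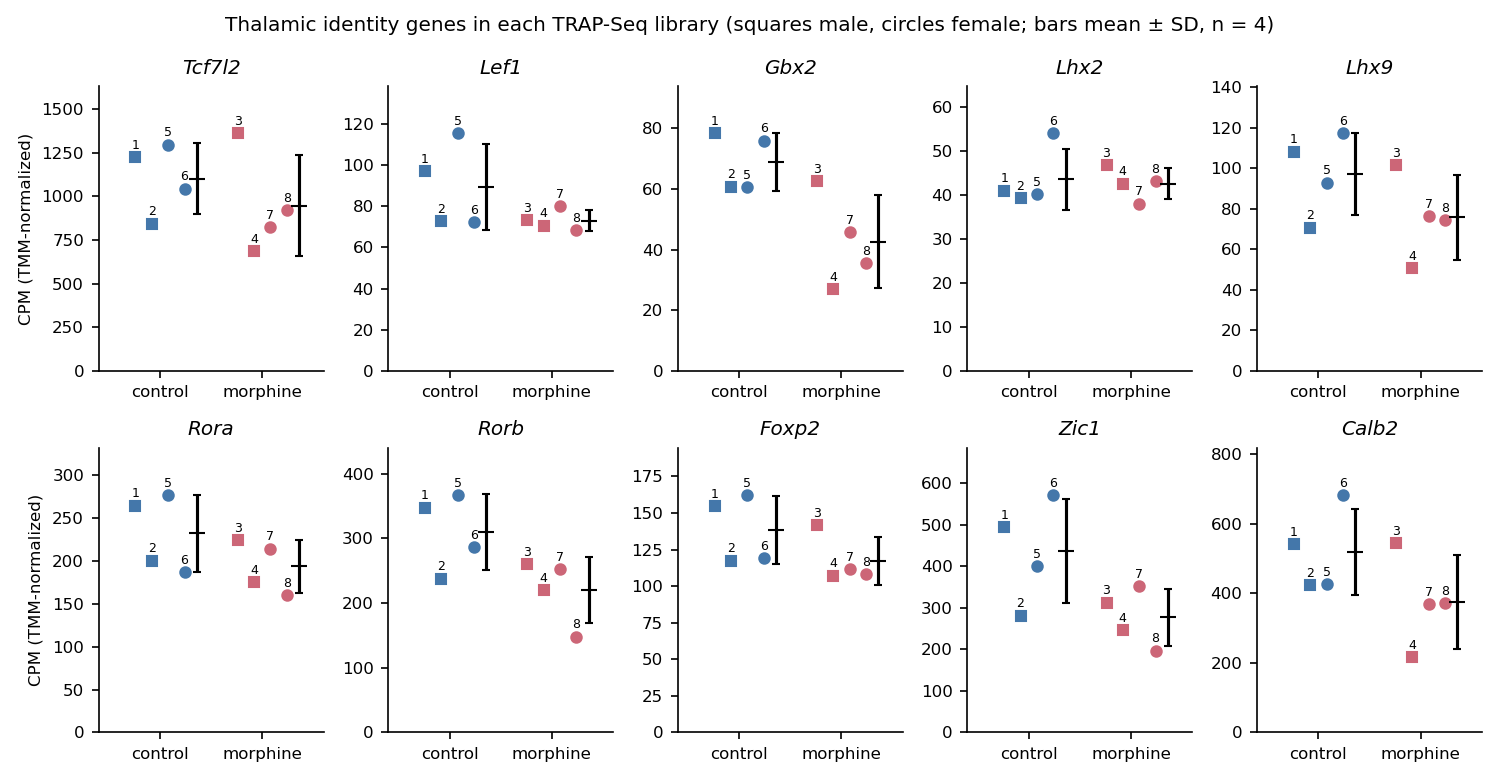
CPM of the 10 genes in each library, with squares for male and circles for female libraries, library numbers above the points and bars for the mean ± SD of each group (n = 4). In every panel the control and morphine libraries overlap, and in Gbx2 3 morphine libraries (27.0 to 45.7 CPM) lie under all controls.

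Gbx2, the homeodomain gene of midline thalamic neurons (NM_010262, chr1:89927962-89931176, GRCm38.p6), had the lowest log2 fold change of the 10 with all 8 libraries. Without control 2, morphine 4 or morphine 7 that of Zic1 was lower (-0.82, -0.60 and -0.81, as compared to -0.75, -0.53 and -0.74). Gbx2 was at 78.3, 60.8, 60.6 and 75.9 CPM in control 1, 2, 5 and 6 and at 62.5, 27.0, 45.7 and 35.4 CPM in morphine 3, 4, 7 and 8. Of the 4 morphine libraries 3 were below the lowest control, and morphine 3 was above 2 of the 4 controls. The mean went from 68.9 ± 9.51 to 42.7 ± 15.3 CPM, 38.1% lower, with a log2 fold change of -0.69 (SE 0.22, 95% interval -1.16 to -0.22). edgeR gave an unadjusted P value of 0.00805 and an adjusted P value of 0.227, DESeq2 an adjusted P value of 0.0643, and the exact permutation test over 70 arrangements of the libraries gave P = 0.0857, where 0.0286 is the smallest value possible. When single libraries were left out, its log2 fold change lay between -0.94 (without morphine 3) and -0.53 (without morphine 4), with an unadjusted P value under 0.05 in 8 of 8 fits.

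Zic1, a zinc finger gene of medial thalamus and habenula (NM_009573, chr9:91358058-91365768), was at 495, 281, 400.2 and 572 CPM in control 1, 2, 5 and 6 and at 312, 247, 353 and 197 CPM in morphine 3, 4, 7 and 8. Its controls spread over a factor of 2.04, the widest among the 10 genes, and control 2 was below 2 of the morphine libraries. The log2 fold change was -0.66 (SE 0.22, 95% interval -1.14 to -0.17), with an adjusted P value of 0.266 from edgeR and an exact permutation P = 0.0857. Without each library in turn it lay between -0.82 and -0.52. Zic4, its neighbour in a head-to-head pair, shares exon sequence with Zic1 on the opposite strand, and since the counting is not stated to use strand, reads of the pair may be mixed. Zic4 was at 70.8 ± 27.9 CPM in control and 44.7 ± 14.1 CPM in morphine libraries, with a log2 fold change of -0.66 (-0.44 without control 6) and an adjusted P value of 0.366 (edgeR).

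Calb2, a calcium buffer of midline thalamic neurons (NM_007586, chr8:110142526-110168212), was at 542, 423, 426 and 683 CPM in control 1, 2, 5 and 6 and at 545, 217, 369 and 372 CPM in morphine 3, 4, 7 and 8. Control 6 was the highest library and morphine 4 the lowest, while morphine 3 was as high as control 1. The log2 fold change was -0.47 (SE 0.24, 95% interval -0.999 to 0.068) with an adjusted P value of 0.488 from edgeR, and it ranged from -0.70 without morphine 3 to -0.27 without morphine 4. In the other 2 calcium-binding genes used to divide thalamic neurons, the group means were 304 and 267 CPM for Calb1 and 102 and 136 CPM for Pvalb. The log2 fold change of Calb1 was -0.19 (edgeR adjusted P = 0.677), or -0.055 without morphine 8 and -0.33 without morphine 3. That of Pvalb was 0.42 (edgeR adjusted P = 0.624), or 0.16 without control 1 and 0.80 without control 5.

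The nuclear receptor genes Rora and Rorb had their highest values in control 5. Rorb (NM_001043354, chr19:18930609-19111196) was at 348, 238, 367 and 286 CPM in control 1, 2, 5 and 6 and at 259.9, 219.7, 253 and 148 CPM in morphine 3, 4, 7 and 8. All controls but control 2 lay above every morphine library. Its log2 fold change was -0.49 (SE 0.18, 95% interval -0.90 to -0.090), with an unadjusted P value of 0.0209 and an adjusted P value of 0.313 by edgeR, and it was -0.34 without morphine 8. Rora (NM_013646, chr9:68653404-69388246) was at 265, 201, 277 and 187 CPM in the controls and at 224, 176, 215 and 161 CPM in the morphine libraries, in the same order. Control 6 was thus below 2 morphine libraries, and the log2 fold change was -0.26 (SE 0.15, 95% interval -0.60 to 0.074, adjusted P = 0.542). An antisense gene, Gm15511, overlaps exons of Rora, as D130058E05Rik does for Gbx2 and Gm43352 for Lef1, and their reads may be mixed in the same way.

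Among the TCF/LEF genes, Tcf7l2 (chr19:55741797-55933659) was at 1223, 843, 1295 and 1043 CPM in control 1, 2, 5 and 6 and at 1359, 686, 822 and 919.7 CPM in morphine 3, 4, 7 and 8. The highest and the lowest of the 8 libraries were both male morphine libraries, which differed by a factor of 1.98. The log2 fold change of -0.22 (SE 0.20, 95% interval -0.66 to 0.23, edgeR adjusted P = 0.677) lay between -0.44 without morphine 3 and -0.092 without morphine 4. Lef1 (NM_010703, chr3:131110297-131224357) was at 96.9, 72.6, 115 and 72.2 CPM in the controls and at 73.2, 70.6, 79.9 and 68.2 CPM in the morphine libraries. Control 1 and control 5 stood above the remaining 6 libraries, which were within 68.2 to 79.9 CPM. Its log2 fold change was -0.29 (SE 0.15, 95% interval -0.61 to 0.032, adjusted P = 0.469) and was -0.16 without control 5.

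Lef1 is also known as a target of TCF/LEF proteins. The RefSeq promoter table (GRCm38.p6) gave 14 start sites for 8 of the 10 genes, with none for Foxp2 and Calb2. In the 250 bases before each start, the letters CTTTGA or their reverse complement TCAAAG, the core that TCF/LEF proteins bind, were found at 1 of the 14 starts, as compared to 13.8% of 32851 promoters in the table. This was an internal start of Lef1 on the plus strand, within the gene and outside its annotated exons, and it held 2 copies, at 180 and 120 bases before the start. The stretch is shown since it is the only window of the set with the letters, which are in capitals.
Lef1 internal start, chr3:131156044-131156293, plus strand: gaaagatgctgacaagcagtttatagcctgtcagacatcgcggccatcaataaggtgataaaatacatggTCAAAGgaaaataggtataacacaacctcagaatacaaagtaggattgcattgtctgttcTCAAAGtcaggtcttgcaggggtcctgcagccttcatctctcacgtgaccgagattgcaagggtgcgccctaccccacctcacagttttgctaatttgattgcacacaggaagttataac
The row of Lef1 counts belongs to a transcript that begins at the upstream start, so the table does not measure use of the internal start. AGGTCA, the core bound by ROR receptors, was found in 0 of the 14 windows (14.0% of all promoters), TAATTA, bound by many homeodomain proteins, in 0 (4.84%), and GTAAACA, bound by forkhead proteins, in 0 (3.17%), searching both strands.

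The LIM homeodomain genes Lhx2 and Lhx9 had different patterns. Lhx9 (NM_001025565, chr1:138825186-138848839) was at 108, 70.7, 92.8 and 117 CPM in control 1, 2, 5 and 6 and at 101, 50.7, 76.2 and 74.3 CPM in morphine 3, 4, 7 and 8. Only morphine 4 was below all controls, and the log2 fold change was -0.36 (SE 0.20, 95% interval -0.80 to 0.080, adjusted P = 0.517), or -0.21 without morphine 4 and -0.53 without morphine 3. Lhx2 (NM_010710, chr2:38339271-38369737) was at 40.9, 39.3, 40.0 and 53.9 CPM in the controls and at 46.6, 42.5, 37.96 and 43.0 CPM in the morphine libraries. Apart from control 6 the libraries lay within 37.96 to 46.6 CPM, and the log2 fold change was -0.033 (SE 0.12, 95% interval -0.30 to 0.23, adjusted P = 0.934), or 0.063 without control 6. Lhx2 was the only gene of the 10 whose direction changed when a library was left out.

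Foxp2, a forkhead gene of thalamic and striatal neurons (NM_053242, chr6:14901349-15441977), was at 154, 117, 162 and 119 CPM in control 1, 2, 5 and 6. In morphine 3, 4, 7 and 8 it was at 142, 107, 112 and 108 CPM. All morphine libraries but morphine 3 were below every control. Its log2 fold change was -0.24 (SE 0.14, 95% interval -0.54 to 0.061, adjusted P = 0.532).

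**Figure D3:**
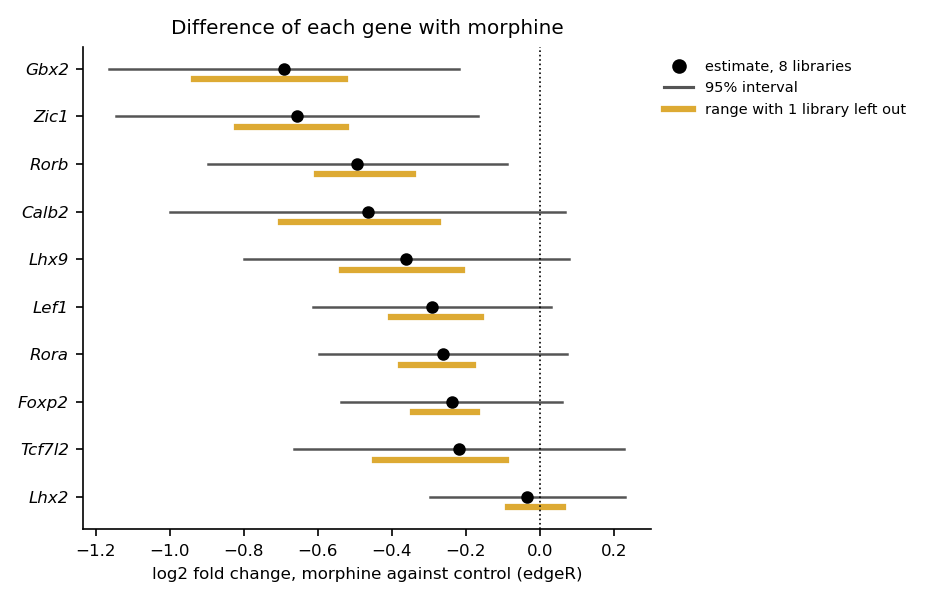
Log2 fold change of each gene, morphine against control, from edgeR over 8 libraries (points), with 95% intervals (grey) and the range when each library is left out in turn (yellow). The intervals of Gbx2, Zic1 and Rorb lie below 0 before adjustment, and the yellow range of Lhx2 crosses 0.

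The 10 genes did not share a single order of libraries. Lef1, Rora, Rorb and Foxp2 were highest in control 5, whereas Lhx2, Lhx9, Zic1 and Calb2 were highest in control 6, a library that ranked sixth of 8 for Lef1 and Rora. Control 1 was among the 2 highest libraries in 7 of the 10 genes. At the other end, morphine 4 was lowest in Tcf7l2, Gbx2, Lhx9, Foxp2 and Calb2 and among the 2 lowest libraries in 9 genes, and morphine 8 was lowest in Lef1, Rora, Rorb and Zic1. Control 2 was highest in no gene, and its median deviation from the gene means was -0.12 on the log2 scale, below that of morphine 3 (0.15). Over the 10 genes the median coefficient of variation was 19.3% in the control and 24.1% in the morphine group, as compared to 10.4% and 10.8% for genes with a mean of at least 20 CPM.

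**Figure D4:**
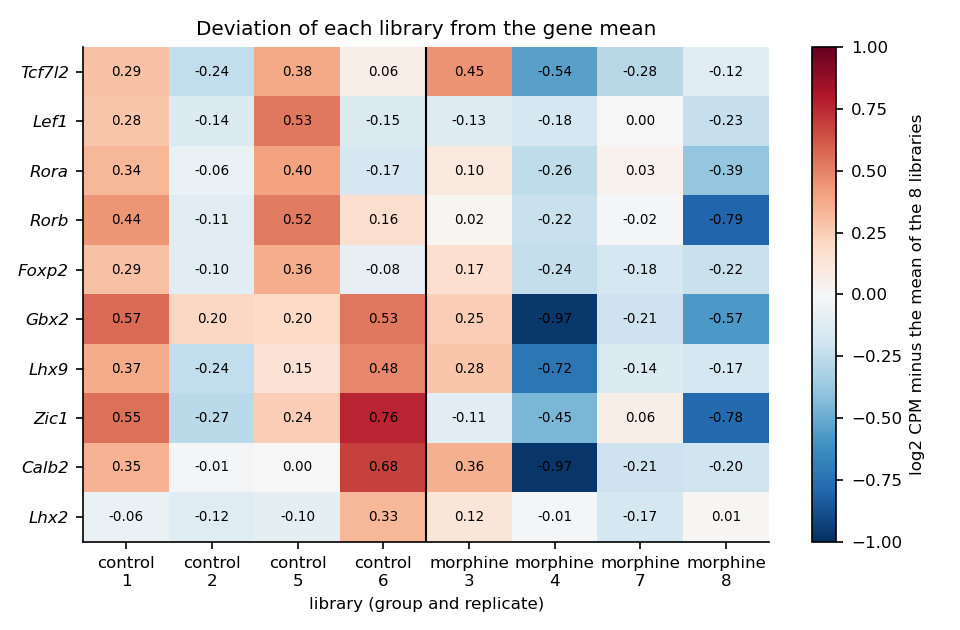
Deviation of each library (columns) from the mean of the 8 libraries for each gene (rows), as log2 CPM, with red above and blue below the mean and a line between control and morphine. Gbx2 and Calb2 are lowest in morphine 4, at -0.97 each, and Zic1 is highest in control 6, at 0.76.

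Levels of other cell types differed between the same libraries. Genes of telencephalic pyramidal neurons summed to 1583, 1633, 1655 and 2345 CPM in control 1, 2, 5 and 6 and to 2093, 4262, 3833 and 3188 CPM in morphine 3, 4, 7 and 8. Of these 13 genes all had a higher mean in the morphine group (median log2 fold change 1.13), and 9 had an unadjusted P value under 0.05. edgeR called 1 of them, Bhlhe22, a transcription factor of cortical projection neurons (adjusted P = 0.0176, and 0.0123 to 0.0926 with single libraries left out, passing in 5 of 8 fits), and DESeq2 called 6, all higher, Neurod6, Neurod2, Slc17a7, Bcl11b, Nrgn and Bhlhe22. Morphine 4, the lowest library for 5 of the 10 thalamic genes, was the highest for this list, and morphine 3, the highest for Tcf7l2, was the morphine library with the lowest sum. Control 6, the highest library for Lhx2, Lhx9, Zic1 and Calb2, had the highest control sum of this list, and control 2, with the lowest total of the 10 genes among controls (2346 CPM), was at 1633 CPM. Choroid plexus genes summed to 43.7 to 166 CPM in control and 219 to 683 CPM in morphine libraries, and 10 of 13 had an unadjusted P value under 0.05, all higher, with 0 called by edgeR and 7 by DESeq2. Oligodendrocyte genes summed to 128 to 1285 and 602 to 1591 CPM (12 of 12 with a higher mean, 0 called by edgeR or DESeq2 and 0 with an unadjusted P value under 0.05). Their part in the lower means of the 10 genes was not tested.

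Medial habenula genes, a neighbour of the PVT that also makes Tcf7l2, summed to 99.99 to 144 CPM in control and 113 to 137 CPM in morphine libraries (9 genes), and hypothalamic genes to 16.1 to 43.3 and 4.05 to 29.8 CPM (10 genes). Astrocyte genes summed to 18.1 to 72.5 and 31.4 to 79.8 CPM, microglial genes to 7.08 to 16.6 and 7.83 to 15.6 CPM, and genes of endothelium and meninges to 3.83 to 12.04 and 3.83 to 10.8 CPM, in control and morphine libraries. In these 5 lists edgeR called 0 genes. Before adjustment 2 hypothalamic genes were lower and 1 of endothelium and meninges was higher (P under 0.05), and DESeq2 called 1 hypothalamic gene, lower.

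Among 13 other genes of thalamic glutamatergic neurons, all 13 had a lower mean in the morphine group and 0 were called by edgeR (5 had an unadjusted P value under 0.05), with a median log2 fold change of -0.19 and summed levels of 3915 to 5288 CPM in control and 3381 to 4227 CPM in morphine libraries. DESeq2 called 2 of them, Shox2 and Rgs16. Among all genes, 48.6% were below 0, 5.31% were lower with an unadjusted P value under 0.05 and 2.65% were called by DESeq2. Shox2, a homeodomain gene of thalamic neurons, was at 102 ± 4.45 and 67.2 ± 20.1 CPM (log2 fold change -0.60, adjusted P = 0.183). Rgs16, a regulator of G protein signalling, was at 168 ± 24.4 and 117 ± 18.8 CPM (-0.52, adjusted P = 0.161). Slc17a6 and Ntng1, a thalamic membrane protein, each had a log2 fold change of -0.02 (adjusted P of 0.979 and 0.965), which became 0.08 and 0.04 without morphine 4. At the other end it was -0.15 for Slc17a6 without morphine 8 and -0.11 for Ntng1 without morphine 3. With single libraries left out, between 11 and 13 of the 13 genes were below 0, the median lay between -0.35 (without control 6) and -0.16 (without morphine 8), and Shox2 was called by edgeR without morphine 3 (adjusted P = 0.0157).

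Sex was tested alongside condition. The female minus male log2 difference lay between -0.09 (Gbx2) and 0.15 (Zic1) for the 10 genes. None was called (1 of 18939 genes was, 0.00528%), and none had an unadjusted P value under 0.05 (3.1% of all genes had). The interaction of sex and morphine called 0 of 18939 genes in edgeR (0%) and 4 in DESeq2. Before adjustment 325 genes (1.72%) had a P value under 0.05, and none of the 10 did. Without control 5, 0 of the 10 were called or had an unadjusted P value under 0.05 in either comparison (2.63% and 1.64% of all genes had), the female minus male differences lay between -0.20 (Foxp2) and 0.20 (Zic1), and the interaction ranged from -0.58 (Zic1) to 0.28 (Lef1), as compared to -0.42 (Rorb) to -0.09 (Rora) with all libraries. With 2 libraries per sex and group, the log2 difference of morphine and control was -0.27 in males and -0.74 in females for Rorb, -0.07 and -0.42 for Tcf7l2, and -0.42 and -0.86 for Zic1. For Gbx2 it was about the same in both sexes, -0.74 in males and -0.75 in females, while the interaction fitted by edgeR was -0.12 (SE 0.44). Lhx2 was the only gene of the 10 with opposite signs, 0.15 in males and -0.20 in females.

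Several transcripts were listed for 4 of the genes, 8 for Tcf7l2, 3 for Lhx9 and 2 each for Rorb and Foxp2, and reads common to transcripts of a gene were counted on each of them. Counts of the other transcripts were therefore set against the row used. The shorter Lhx9 transcript NM_001042577 held 46.2% ± 1.77 of that row in control and 46.6% ± 2.57 in morphine libraries (SD, n = 4, exact permutation P = 0.857). For Tcf7l2, transcript NM_001142920 held 97.2% ± 0.231 in control and 97.7% ± 0.0552 in morphine libraries (n = 4, exact permutation P = 0.0286), the smallest value possible and 1 of 11 such transcript comparisons, with a value of 0.314 after Benjamini-Hochberg adjustment. The other 9 comparisons gave P values of 0.114 or more in the same test. With counts summed over transcripts, the median log2 fold change of the 10 genes was -0.33 as well.

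The families of the 9 transcription factors and of calretinin hold 23 further genes in the table, of which 0 were called by edgeR or DESeq2 and 16 had a lower mean in the morphine group (median log2 fold change -0.29). Before adjustment 5 of the 23 had P values under 0.05, 2 higher and 3 lower, as compared to 12.1% of all genes. Zic2 was at 148 ± 41.6 and 104 ± 37.8 CPM (log2 fold change -0.52, adjusted P = 0.455), and Zic5 at 14.1 ± 5.52 and 8.15 ± 2.48 CPM (log2 fold change -0.79, adjusted P = 0.286). Tcf7l1, a further TCF gene, was at 0.417 ± 0.143 and 0.985 ± 0.530 CPM (1.21, or 0.78 without morphine 4, adjusted P = 0.248), and Lhx4 had 1 to 24 counts per library (2.03, adjusted P = 0.331). Foxp1, a relative of Foxp2 in many forebrain neurons, was at 209.5 ± 29.3 and 223 ± 81.3 CPM. Its log2 fold change was 0.089 (edgeR adjusted P = 0.899), or -0.12 without morphine 4 and 0.26 without morphine 8.

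Of 16 partners and feedback targets of TCF/LEF proteins, edgeR called 0 and DESeq2 called 2, which were lower (2.65% of all genes were called by DESeq2). Before adjustment 6 had P values under 0.05, all lower, as compared to 5.31% of all genes. Of the 16, 9 had a lower and 7 a higher mean in the morphine group (median log2 fold change -0.10), among the higher ones the corepressor gene Tle1 (0.23, or 0.15 without control 2, adjusted P = 0.523). Tle3, a corepressor that binds TCF/LEF factors, was at 64.2 ± 9.10 CPM in control and 47.2 ± 4.199 CPM in morphine libraries (log2 fold change -0.44, adjusted P = 0.16 in edgeR and 0.0392 in DESeq2). The Wnt feedback genes Nkd1 (-0.55) and Axin2 (-0.37) had adjusted P values of 0.177 and 0.202 in edgeR and of 0.0417 and 0.0661 in DESeq2. Bcl9, which links beta-catenin to the transcription machinery, had a log2 fold change of -0.31 (-0.20 without morphine 3, adjusted P = 0.322). Ctnnb1, beta-catenin itself, was at 630 ± 76.7 and 524 ± 56.9 CPM (-0.27, adjusted P = 0.411), and Notum and Rnf43, further feedback genes, stayed at or under a mean of 2.02 CPM.

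Among 9 cofactors of LIM homeodomain proteins, edgeR called 1 gene, Lmo3, and DESeq2 called Lmo3 and Lmo4 (0.195% and 2.65% of all genes). Lmo3, a LIM-only protein that competes for the cofactors of LIM homeodomain factors, was at 56.9, 66.6, 72.2 and 66.4 CPM in control 1, 2, 5 and 6 and at 99.1, 125, 107 and 108 CPM in morphine 3, 4, 7 and 8. The groups did not overlap, and Lmo3 was upregulated in the morphine group (65.5 ± 6.34 and 109.9 ± 10.9 CPM, log2 fold change 0.75, SE 0.11, adjusted P = 0.0227 in edgeR). When single libraries were left out its log2 fold change lay between 0.67 and 0.79 and the adjusted P value between 0.0216 and 0.0948, passing in 4 of 8 fits, and without both control 6 and morphine 7 the adjusted P value was 0.0750. Lmo4 was at 83.3 ± 16.8 and 130 ± 14.6 CPM (0.64) with an adjusted P value of 0.0952 in edgeR and 0.00423 in DESeq2, and in edgeR it passed with sex in the model (0.0498) and without control 6 (0.0328, the range over single libraries being 0.0328 to 0.295). Lmo1 (0.42, or 0.26 without morphine 8, adjusted P = 0.466) and Ssbp3 (-0.20, adjusted P = 0.437) were not called, and the adaptor genes Ldb1 and Ldb2 had log2 fold changes of -0.21 (-0.095 without morphine 3) and -0.16. Lmo3 and Lmo4 are also used by neurons of cortex and amygdala, and the summed level of telencephalic genes differed between the same libraries. Whether that bears on Lmo3 was not tested.

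**Figure D5:**
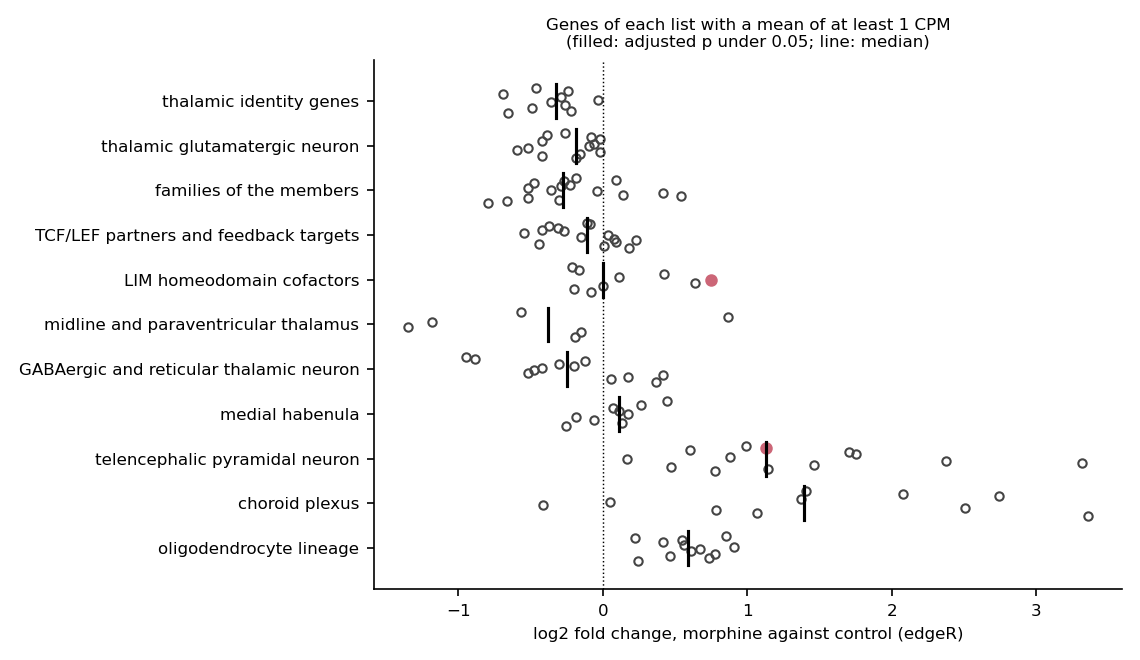
Log2 fold change, morphine against control, of each gene of the lists with a mean of at least 1 CPM, with a line at the median of those genes and filled points for an adjusted P value under 0.05. The 10 thalamic genes lie below 0, Lmo3 is filled among the LIM cofactors, and Bhlhe22 among the telencephalic genes.

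Genes whose log2 CPM over the 8 libraries was most like that of Tcf7l2, among 12989 genes with a mean of at least 1 CPM, were Wdr12 (r = 0.980), Lin9 (r = 0.977) and Fbxo3 (r = 0.968). For Gbx2 they were Prrg4 (r = 0.983), Arrdc1 (r = 0.981) and Tox (r = 0.977). Of the 10 genes themselves, Foxp2 was closest to Tcf7l2, at place 140 (r = 0.882), and Calb2 to Gbx2, at place 74 (r = 0.920). These coefficients describe 8 libraries that share the same 2 groups and were picked as the highest of many.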

How the data were processed

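TRAP-Seq RNA of 8 libraries was measured. The file that the authors deposited holds raw counts of reads for RefSeq transcripts, as whole numbers without normalization. The submitters' processing notes name mm10 and DESeq2. The study's methods describe quantification with Salmon and a matrix of counts by gene made with tximport. The deposited table is a different one, since it lists transcripts, and the tool that made it is not given in the sources used here. Reads common to transcripts of a gene appear on each of them, so the transcript with the most counts over all libraries stood for its gene (24488 transcripts, 18939 genes). The analysis plan had assumed counts per gene, and this choice followed a look at the table. The labels give no sequencing batch. Group, sex and replicate came from the labels, and 0 columns were left without a sample.

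TMM normalization and the quasi-likelihood test of edgeR 4.0.16 (R 4.3.3) were applied to all genes, with Benjamini-Hochberg adjustment. The sex comparison had condition as a covariate, and a model with both terms gave the interaction. CPM came from TMM-normalized library sizes, with transcript lengths from GENCODE M21 for 97.7% of genes. Log2 CPM had a prior count of 2 for the principal components and for the likeness of genes. Deviations of libraries from gene means used log2 CPM without a prior count, and differences within each sex used log2(CPM + 0.5). Exact two-sided permutation tests over 70 arrangements used log2(CPM + 0.5). Promoter windows were those of RefSeq on GRCm38.p6.

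Alternatives were DESeq2 1.42.0, other scaling factors, filters on low counts, sex in the model, the sum over transcripts and each library left out. DESeq2 with sex in the model and leaving out the 2 libraries that lay apart were added after seeing the data. The tests were tested on simulated data. Genes named were all 10 genes, in each of 3 related lists those with an adjusted P value under 0.05 or, up to 4, the lowest P values, and for Tcf7l2 and Gbx2 the 3 genes with the highest r. Other listed genes named for background (Oprm1, Bhlhe22, Shox2, Rgs16, Slc17a6, Ntng1, Calb1, Pvalb, Foxp1, Zic2, Ctnnb1, Notum, Rnf43, Ldb1, Ldb2, Gal, Esr1, Drd2, Tle1, the telencephalic genes, Drd3 and Npffr1) were chosen after their values were seen. The 10 genes and the lists were chosen with earlier results of these data known. Depth lay between 31151106 and 47582947 counts per library. PCR copies are not marked, so reads are not independent molecules. Genes that overlap others on the opposite strand (Gbx2, Lef1, Rora and Zic1) are uncertain, since the counting is not stated to use strand. A gene of the lists is not reported here. Figures were drawn with matplotlib 3.10.9.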

Additional observations from a re-analysis of the deposited data

Results flagged for a closer look

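In groups of 4 libraries, a library was picked out when its gap to the nearest other library, divided by the range of the group, passed Dixon's 95% critical value. Of 50 groups tested 6 had such a library, and chance gives about 1 in 20. Lhx2 was at 53.9 CPM in control 6, with the other controls at 39.3 to 40.9 CPM. Foxp2 was at 142 CPM in morphine 3, with the other morphine libraries at 107 to 112 CPM. Summed levels of gene lists gave the remaining 4. TCF/LEF partners and feedback targets summed to 1388 CPM in control 2, as compared to 1687 to 1736 CPM in the other controls. Cofactors of LIM homeodomain proteins summed to 684 CPM in morphine 3, as compared to 819 to 837 CPM in the other morphine libraries. Genes of telencephalic pyramidal neurons summed to 2345 CPM in control 6, as compared to 1583 to 1655 CPM. Hypothalamic genes summed to 43.3 CPM in control 2, as compared to 16.1 to 19.1 CPM, and Pmch alone gave 21.1 of the 43.3 CPM.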

How the results depend on the processing

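None of the 10 genes was called under any of 18 alternatives, with a lowest adjusted P value of 0.0643 (Gbx2, DESeq2). Of 180 values of the 10 genes under alternatives, 178 kept their direction. The exceptions were Lhx2 without control 6 (0.063, range -0.086 to 0.063 with 1 library left out) and Lhx2 without control 6 and morphine 7 (0.11), where 9 of the 10 genes were below 0. The number of the 10 with an unadjusted P value under 0.05 was 3 with all libraries (12.1% of all genes), 7 without morphine 3 (13.7%), 6 without control 2 (18.5%), 5 without control 6 (10.4%) and 2 without control 1 (7.6%) or control 5 (11.1%). No paired analysis was possible because the control and morphine groups share no replicate number.

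The number of all genes called for morphine against control, 37, was 502 with DESeq2, 433 with DESeq2 and sex in the model, 110 with sex in the edgeR model, 22 with the sum over transcripts, 14 with filterByExpr and 15 with at least 10 counts in every library. With 1 library left out it ranged from 0 (without morphine 4 or 8, with 1697 and 1664 genes at an unadjusted P value under 0.05) to 77 (without control 6 or morphine 3), and was 1 without control 1, 11 without morphine 7 and 20 without control 5. Between females and males 1 gene was called, 21 with DESeq2, 0 with filterByExpr (495 before adjustment) and 0 to 5 with 1 library left out. For the interaction 0 were called, 4 with DESeq2 and 0 to 5 with 1 library left out. The cause was not tested. Other scaling factors shifted the morphine minus control difference in log2 CPM by -0.024 to 0.017 from that with TMM, a shift common to all genes.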
